A study of Mus musculus with 6 samples.

Results

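The matrix metalloproteinases (MMPs), the ADAMTS proteases and the tissue inhibitors of metalloproteinases (TIMPs) were described in fracture callus of mice with and without Cyp24a1. The genes were taken as those whose array probe sets carry 1 gene symbol of the form Mmp, Adamts or Timp followed by a number, with each gene read from its probe set with the highest mean. This gave 37 genes of the 18193 on the array, on 70 probe sets, with 18 MMPs, 15 ADAMTS enzymes and all 4 TIMPs. A further 9 genes of these families, Mmp15, Mmp21, Mmp25, Mmp27, Mmp28, Adamts2, Adamts13, Adamts14 and Adamts17, were not analysed here.

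The series holds 6 Affymetrix arrays of callus, the repair tissue that bridges a break, with 3 from Cyp24a1 (-/-) mice (null) and 3 from Cyp24a1 (+/-) littermates (heterozygous). Cyp24a1 encodes the enzyme that inactivates the hormonal form of vitamin D. All mice were 12 weeks old, on a C57BL6J x 129SV mixed background, and had the tibia cut and held by a rod in the marrow cavity, with callus taken at day 14. The controls also carry 1 disrupted copy, and no wild-type or uninjured samples were analysed here. Whether the 3 arrays of a group are 3 different mice is not stated, so p-values speak only to the spread among these arrays. High Xist on 1 array per group shows that more than 1 mouse was used in each.

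MMPs and ADAMTS enzymes are zinc proteases that cut the collagens and proteoglycans of the extracellular matrix. MMPs are made as inactive precursors, and TIMPs bind and block the active enzymes. In bone repair the cartilage template is cut away by such enzymes, among them Mmp13 of hypertrophic chondrocytes and osteoblasts and Mmp9 of osteoclasts and leukocytes, before bone replaces it.

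Levels are given on the log2 scale of the deposited values, on which 1 unit is a doubling, and differences are null minus heterozygous. Values of different probe sets are not compared with each other, because each probe set has its own brightness. Transcripts that an array should lack (Xist or Y-linked genes) reached up to 3.52, and this was used as a background level. By this guide 28 of the 37 genes were above background on every array. Adamts3, Mmp7 and Mmp19 were above it on some arrays, and Adamts18, Adamts19, Adamts20, Mmp1a, Mmp1b and Mmp20 on none.

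Markers of the tissue were present, with the bone collagen gene Col1a1 between 13.57 and 14.28 and the bone sialoprotein gene Ibsp between 9.46 and 10.44. Of 9 cartilage genes, 7 were above background, among them Col2a1 (7.04 to 9.76), Col11a1 (8.82 to 9.81) and Acan (5.71 to 7.39), while Matn1 and Hapln1 were under it on every array. The hypertrophic cartilage collagen gene Col10a1 was at 3.11 on null replicate 1, at 4.44 on null replicate 2 and between 6.74 and 7.79 elsewhere. Skeletal muscle transcripts were abundant, with the muscle actin gene Acta1 at 14.40 to 14.49 on all arrays. A pair of arrays, null replicate 1 and heterozygous replicate 3, held little RNA of marrow cells. There 9 measured neutrophil genes averaged 6.68 and 6.20, against 10.78 or more on the other 4 arrays, and 6 erythroid genes averaged 3.60 and 4.12, against 7.69 or more. Cyp24a1 itself was near background on its probe sets 1418866_at (3.36 ± 0.25 in null, 2.90 ± 0.19 in heterozygous callus, SD, n = 3) and 1418867_at (3.27 ± 0.17 and 3.34 ± 0.30). The sources used here do not say whether these probes fall in the exons that were disrupted, and these values are no check of genotype. In bulk tissue, fewer cells of a type and less RNA per cell cannot be told apart.

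In limma, 0 of the 37 genes had an adjusted p under 0.05 (lowest adjusted p = 0.999), and 0 of 45037 probe sets did, a background of 0%. Adamts5, higher in null callus, was the 1 gene with an unadjusted p under 0.05, and 0 genes were lower at that level. The background is 4.49% of all genes (2.06% higher, 2.43% lower in null callus) and 3.69% of all probe sets. The groups did not overlap for 6 genes, against 10.1% of all genes: Adamts3, Adamts5, Adamts10 and Mmp19 were higher in null callus, against 4.14% of all genes, and Mmp7 and Mmp24 lower, against 5.99%. The difference was above 0 for 26 of 37 genes, where 49.7% of all genes had a difference above 0, and the median difference was 0.15, or 1.11-fold, against -0.0017 over all genes. By family the median was 0.026 over the MMPs (10 of 18 above 0), 0.19 over the ADAMTS enzymes (13 of 15) and 0.16 over the TIMPs (3 of 4). The 26 genes include Mmp20, Adamts18 and Adamts20, which were under background on every array. Of the 31 genes above background on at least 1 array, 23 had a difference above 0, against 52.2% of all such genes. Markers of several other cell types also had higher means in null callus: 6 of 7 fibroblast and tendon genes (median 0.42), 7 of 7 endothelial genes (0.28), 4 of 5 smooth muscle genes (0.37), 10 of 10 macrophage genes (0.50) and 6 of 6 keratinocyte genes (1.27). Neutrophil genes were higher for 7 of 9 (0.16). The remaining lists had mostly lower means in null callus. Only 1 of 8 osteoblast and osteocyte genes (median -0.31) and 1 of 5 hypertrophic chondrocyte genes (-0.24) were higher. So were 2 of 9 chondrocyte genes (-0.20), 3 of 8 osteoclast genes (-0.085) and 2 of 6 erythroid genes (-0.33). For skeletal muscle it was 0 of 7 (-0.16) and for adipocyte genes 0 of 3 (-0.064). None of these marker genes passed limma's adjusted test, and their part in the family values was not tested. Single arrays moved these values. Without null replicate 1 the median was 0.066 and 4 genes had an unadjusted p under 0.05 (6.28% of all genes). Leaving out null replicate 2 gave a median of 0.29 and 6 genes (4.99% of all genes). With null replicate 3 left out there were 0 genes (2.81% of all genes). When heterozygous replicate 1 was dropped, the median was 0.052 with 0 genes (2.94% of all genes). Dropping heterozygous replicate 3 gave 0.29 and 6 genes, where 7.77% of all genes had such a p. In that last setting 15 genes did not overlap between groups, where 27.0% of all genes did not.

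**Figure D1:**
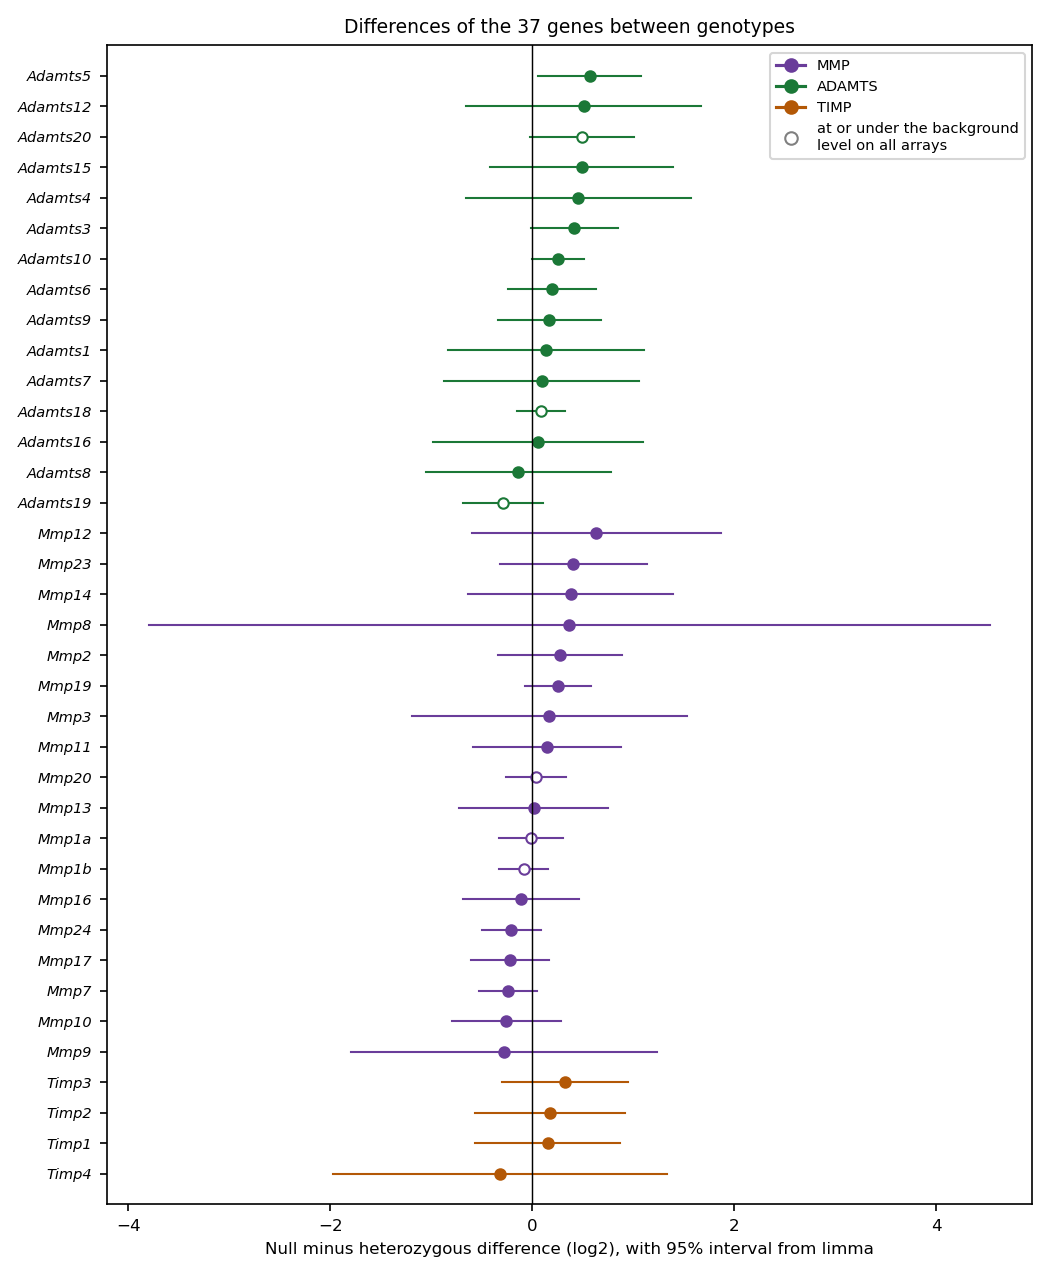
Null minus heterozygous difference on the log2 scale (horizontal axis) of each of the 37 genes, grouped by family and ordered by difference, with the 95% interval from limma (n = 3 per group). Colour gives the family and open circles are the 6 genes at or under background on all arrays. All intervals but that of Adamts5 (0.052 to 1.08) include 0, and the widest is that of Mmp8 (-3.798 to 4.53).

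The spread over arrays, whatever the genotype, was wider for these genes than for most. Of the 31 genes above background on at least 1 array, 19 had a range of more than 1 log2 unit over the 6 arrays, or 61.3%, against 21.3% of all such genes. The median range was 1.18 for the 31 genes and 0.61 for all such genes. Mmp8, with a range of 5.33, Timp4 (2.64), Mmp9 (2.51) and Mmp12 (2.06) varied most. The spread within a genotype therefore sets how small a genotype difference can be seen: the standard error was 1.73 for Mmp8 and 0.21 for Adamts5.

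**Figure D2:**
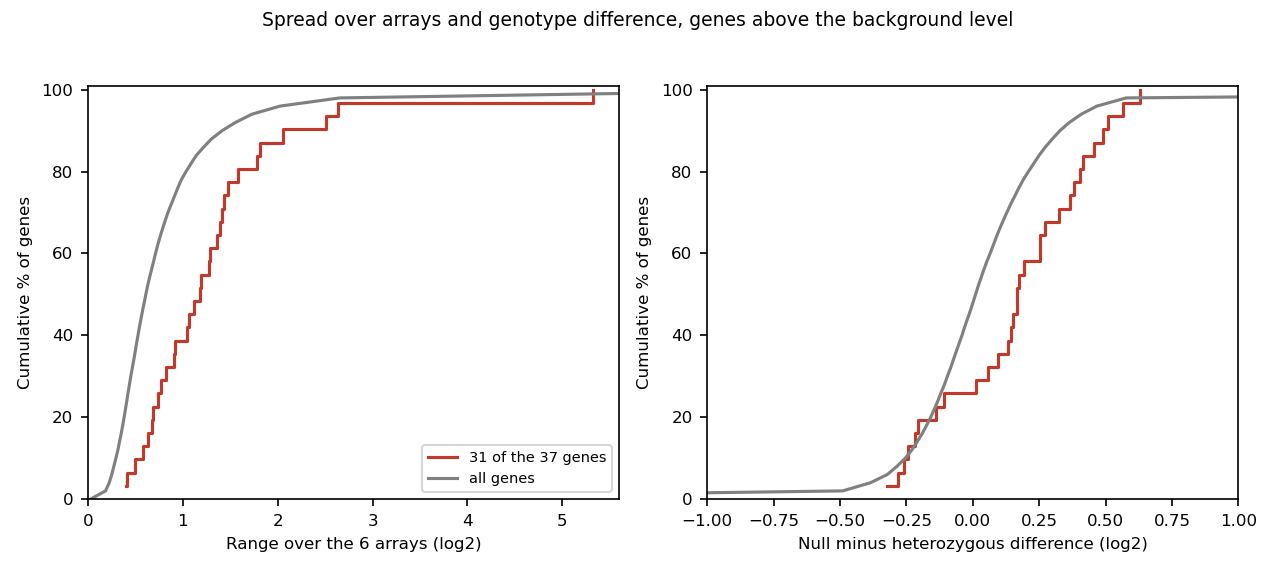
Cumulative percent of genes (vertical axes) by range over the 6 arrays (left) and by null minus heterozygous difference (right), both on the log2 scale, for the 31 genes above background (red) and all genes above background (grey). The red curve lies to the right on the left panel, with a median range of 1.18 against 0.61, and its median difference is 0.17 against 0.011.

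Of the 37 genes, 9 lie in a row on mouse chromosome 9 in the RefSeq annotation of GRCm38.p6, in the order Mmp13, Mmp12, Mmp1b, Mmp3, Mmp1a, Mmp10, Mmp8, Mmp20 and Mmp7. Neighbours in this order have no other coding gene between them, apart from Mmp8 and Mmp20, which have 1. The bases before the start site are shown for 5 of them because these genes differ in their pattern over the arrays although they are neighbours. Each sequence is the 90 bases before the start in RefSeq's table for GRCm38.p6, written 5′ to 3′ on the plus strand, from which all 5 are transcribed,, with capitals marking the AP-1 element TGAGTCA or its reverse complement TGACTCA, the site of Fos and Jun factors. The windows are chr9:7272424-7272513 for Mmp13, chr9:7445732-7445821 for Mmp3, chr9:7502252-7502341 for Mmp10, chr9:7347284-7347373 for Mmp12, of whose 2 listed starts the one with a match is shown, and chr9:7558339-7558428 for Mmp8.
Mmp13: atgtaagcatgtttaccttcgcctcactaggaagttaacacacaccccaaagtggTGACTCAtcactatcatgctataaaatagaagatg
Mmp3: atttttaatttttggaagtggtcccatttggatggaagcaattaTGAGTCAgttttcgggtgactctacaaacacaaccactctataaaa
Mmp10: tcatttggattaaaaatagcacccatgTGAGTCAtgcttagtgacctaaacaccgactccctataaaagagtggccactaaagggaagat
Mmp12: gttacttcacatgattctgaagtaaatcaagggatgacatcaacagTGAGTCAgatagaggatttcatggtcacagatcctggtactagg
Mmp8: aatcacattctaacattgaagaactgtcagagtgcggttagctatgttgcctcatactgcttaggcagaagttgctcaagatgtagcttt
The element begins 35 bases before the start in Mmp13, 46 in Mmp3, 63 in Mmp10 and 44 in Mmp12. Searched on both strands over the 250 bases before the start, it was found in 7 of the 9 genes of the row, in 0 of 14 other genes of the 37 with a listed promoter, and in 5.16% of 27025 genes with one. The RUNX element AACCACA or its reverse complement TGTGGTT was found in 2 of the 23 genes, Mmp13 and Mmp7, against 5.08% of all genes. A match is only a run of letters in the window and does not show that a factor binds there.

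The 4 collagenase genes, whose products cut fibrillar collagen, did not pass the test, and their median difference was -0.0019. Mmp13 (probe set 1417256_at), the collagenase of hypertrophic cartilage and bone, was at 9.71, 9.95 and 9.77 on null replicates 1 to 3 and at 9.52, 9.35 and 10.53 on heterozygous replicates 1 to 3. The null values lay together and inside the heterozygous range, whose top was heterozygous replicate 3, and the difference was 0.012 (SE 0.31, 95% interval -0.73 to 0.75), with a sign that turned to -0.0054 when arrays were centred on their medians. Mmp8 (1449366_at), the neutrophil collagenase, measured 4.20, 8.92 and 8.45 on the null arrays (replicates in order) against 8.52, 8.36 and 3.59 on the heterozygous arrays. Its level on the 2 arrays low in marrow genes was thus far below that on the other 4, and the genotype difference was 0.37 (SE 1.73). Beside it, the neutrophil alarmin gene S100a8 was at 10.16 and 9.25 on those 2 arrays and at 13.01 to 13.25 on the others. Mmp1a and Mmp1b were at or under background on all arrays, with values from 2.14 to 2.63.

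The gelatinases Mmp2 and Mmp9, which cut denatured collagen and basement membrane, differed in their pattern over the arrays. The mean of the 2 arrays low in marrow genes minus that of the other 4 was 0.47 for Mmp2 and -1.40 for Mmp9. Mmp2 (1439364_a_at), made mainly by fibroblasts and other mesenchymal cells, measured 11.42, 10.87 and 11.51 on the null arrays against 10.78, 10.74 and 11.46 on the heterozygous arrays, which overlap. Its difference was 0.27 (SE 0.26, 95% interval -0.35 to 0.89), and its other probe set gave 0.31 (SE 0.27). Mmp9 (1416298_at) measured 7.93, 10.44 and 9.95 on the null arrays against 9.75, 10.05 and 9.36 on the heterozygous arrays, lowest on null replicate 1 and next lowest on heterozygous replicate 3. Its difference was -0.28 (SE 0.63, 95% interval -1.79 to 1.23). On null replicate 1, where Mmp9 was lowest, neutrophil genes were low and so was the mean of 8 osteoclast genes, at 5.68 against 6.22 to 6.66 on the other arrays, and the osteoclast phosphatase gene Acp5 was at 8.43 against 9.78 to 10.64. On heterozygous replicate 3, next lowest for Mmp9, neutrophil genes were low too, but the osteoclast mean was 6.43 and Acp5 was at 10.12. The part of these cells in the Mmp9 values was not tested.

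The stromelysins and matrilysin, of wide substrate range, had differences from -0.26 to 0.17. Mmp3 (1418945_at), the first stromelysin, measured 8.89, 7.11 and 7.78 on the null arrays against 7.16, 7.40 and 8.72 on the heterozygous arrays. Its highest values were on the 2 arrays low in marrow genes, 1 in each group, and the difference was 0.17 (SE 0.57, 95% interval -1.19 to 1.53). Mmp10, a second stromelysin, ranged from 3.795 to 4.48, and Mmp11, the stromelysin of stromal cells, from 6.55 to 7.46, both with overlapping groups. Mmp7, the matrilysin of epithelia, lay between 3.36 and 3.45 on the null arrays and between 3.46 and 3.77 on the heterozygous arrays. All null values and 1 heterozygous value lay under background, the 95% interval of the difference was -0.53 to 0.042, and no fold is given.

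Mmp12 (1449153_at), the elastase of macrophages, had the largest difference among the MMPs. It measured 6.54, 6.03 and 6.72 on the null arrays against 4.90, 5.53 and 6.96 on the heterozygous arrays, so that 2 heterozygous arrays lay below all null arrays and heterozygous replicate 3 above them. The difference was 0.63 (SE 0.51, 95% interval -0.60 to 1.86). It was 0.18 without heterozygous replicate 1 and 1.21 without heterozygous replicate 3. Beside it, 10 macrophage genes averaged 8.496 to 9.90 on the null arrays and 8.12 to 9.07 on the heterozygous arrays. All 10 had higher means in null callus, by a median of 0.50, with 2 at an unadjusted p below 0.05 (4.49% of all genes) and 0 past limma's adjusted test. The osteoblast and osteocyte list also had 2 genes at that unadjusted level, Ibsp and Alpl, both lower in null callus. The hypertrophic chondrocyte, chondrocyte, smooth muscle and keratinocyte lists had 1 each. On the 4 arrays richer in marrow genes the macrophage average was 8.496 and 9.19 (null) and 8.60 and 8.12 (heterozygous). The part of macrophage number in the Mmp12 values was not tested.

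Of the 4 membrane-type MMPs, which act at the cell surface, 3 had lower and 1 had higher means in null callus. Mmp14 (1448383_at), the main activator of the Mmp2 precursor, measured 10.35, 9.13 and 9.91 on the null arrays against 9.06, 8.99 and 10.20 on the heterozygous arrays. Like Mmp3, it was highest on null replicate 1 and heterozygous replicate 3, and its difference was 0.38 (SE 0.42, 95% interval -0.64 to 1.40), with all 3 probe sets higher in null callus. Mmp24 lay between 4.85 and 5.04 on the null arrays and between 5.08 and 5.35 on the heterozygous arrays, without overlap and with a difference of -0.21 (SE 0.12). Mmp16 (4.35 to 5.18) and Mmp17 (4.46 to 5.09) overlapped between groups. Mmp16 differed by -0.11 (SE 0.24), while its other probe sets were slightly above 0. Of these, 1422626_at gave 0.019 (SE 0.17), and those under background gave 0.0099 and 0.023. Among the remaining MMPs, Mmp23 differed by 0.41 (SE 0.30), from 6.90 on heterozygous replicate 2 to 8.17 on null replicate 1. Mmp19 lay between 3.47 and 3.86 on the null arrays and between 3.28 and 3.43 on the heterozygous arrays. Every heterozygous value and 2 of the 3 null values lay under background, so only null replicate 1 was above it, and no fold is given. On its other probe set the highest value was that of heterozygous replicate 3, at 3.86. Mmp20, the enamel protease, was at or under background.

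**Figure D3:**
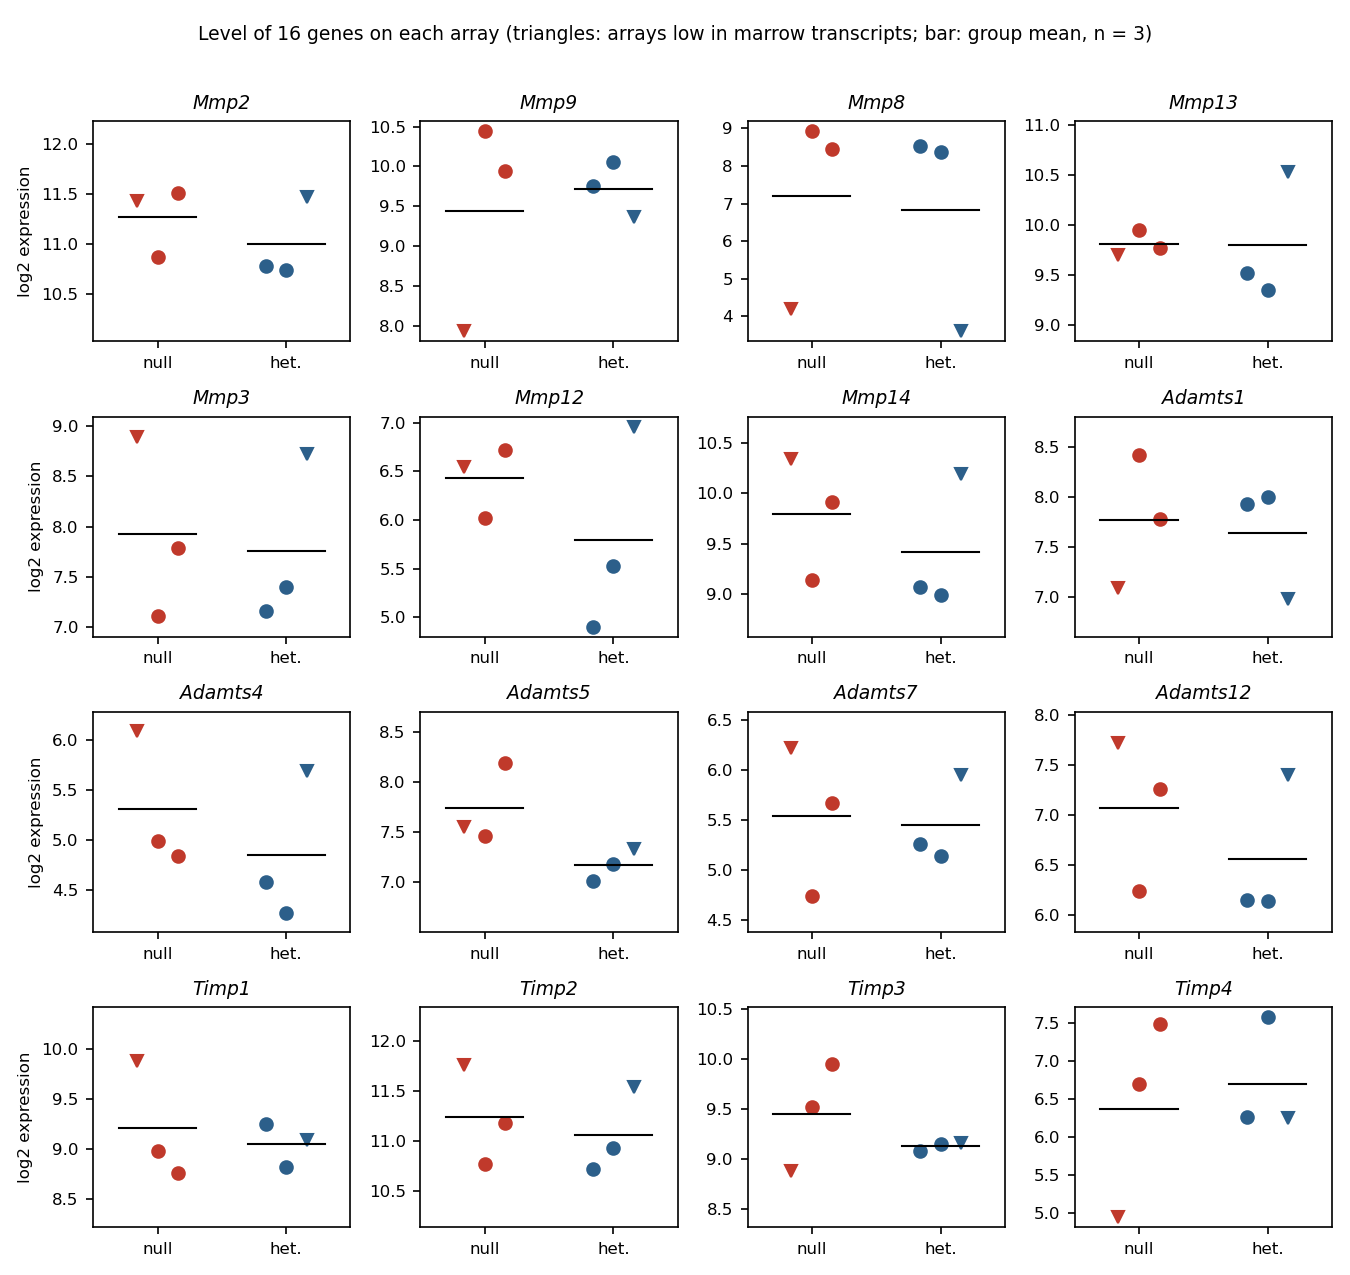
Log2 expression (vertical axes, each with its own range) of 16 genes on each array, in null (red) and heterozygous (blue) callus, with group means as bars (n = 3). Triangles are null replicate 1 and heterozygous replicate 3, which lie lowest for Mmp8, Mmp9, Adamts1 and Timp4 and highest for Mmp3, Mmp14, Adamts4, Adamts7, Adamts12 and Timp2.

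Among the ADAMTS enzymes, the 7 proteoglycanases, which cut aggrecan and versican, had a median difference of 0.46. Means were higher in null callus for 6 of them, where 49.7% of all genes had a difference above 0. The 6 include Adamts20 (0.49, SE 0.21), which was under background on every array. Adamts5 (1422561_at), the main aggrecanase of mouse cartilage, measured 7.55, 7.47 and 8.20 on the null arrays against 7.01, 7.18 and 7.33 on the heterozygous arrays. The null values all lay above the heterozygous ones and null replicate 3 stood above the other null arrays. The means were 7.74 ± 0.40 and 7.17 ± 0.16 (SD, n = 3), a difference of 0.57 (SE 0.21, 95% interval 0.052 to 1.08) or 1.48-fold (limma unadjusted p = 0.036, adjusted p = 0.999). Probe sets 1456404_at and 1450658_at gave 0.41 (SE 0.17) and 0.30 (SE 0.20), and 1456969_at, under background, gave -0.020 (SE 0.10). The difference was 0.34 without null replicate 3 (limma unadjusted p = 0.062) and between 0.48 and 0.70 without each of the other arrays in turn. The unadjusted p was also above 0.05 without heterozygous replicate 1 (0.11) and without heterozygous replicate 2 (0.077), each in limma. With the mean of its probe sets the difference was 0.32 (limma unadjusted p = 0.069). In the plain test with equal variances Adamts5 was not below 0.05 either, and Adamts10 was the 1 gene that was.

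Adamts4 (1455965_at), the second aggrecanase and one known to respond to inflammation, measured 6.08, 4.98 and 4.84 on the null arrays against 4.58, 4.27 and 5.69 on the heterozygous arrays. It was highest on the 2 arrays low in marrow genes, and among the other 4 arrays both null values lay above both heterozygous values. The difference was 0.46 (SE 0.47, 95% interval -0.66 to 1.57). The other Adamts4 probe set, 1452595_at, gave 0.18 (SE 0.48). On it heterozygous replicate 1, at 4.79, lay above null replicates 2 and 3, at 4.56 and 4.75. Adamts1 (1450716_at), which cuts versican and aggrecan, measured 7.09, 8.42 and 7.78 on the null arrays against 7.92, 7.99 and 6.98 on the heterozygous arrays. It was lowest on the 2 arrays low in marrow genes, with a difference of 0.13 (SE 0.40). Adamts1 and Adamts5 are adjacent genes on chromosome 16. Adamts15 differed by 0.49 (SE 0.38) over a range of 5.33 to 6.72, Adamts9 by 0.17 (SE 0.21) and Adamts8 by -0.14 (SE 0.38), all with overlap. Adamts20 was under background, with values from 2.24 to 3.30.

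Adamts7 and Adamts12, which cut the cartilage oligomeric matrix protein COMP, had their highest values on null replicate 1 and heterozygous replicate 3. Adamts12 (1439827_at) measured 7.72, 6.24 and 7.26 on the null arrays against 6.15, 6.14 and 7.40 on the heterozygous arrays, a difference of 0.51 (SE 0.48, 95% interval -0.65 to 1.67). Adamts7 (1452339_at) measured 6.22, 4.74 and 5.67 on the null arrays against 5.26, 5.14 and 5.95 on the heterozygous arrays, a difference of 0.094 (SE 0.40). Adamts3, which trims procollagen at its amino end, measured 3.67, 3.65 and 4.20 on the null arrays against 3.58, 3.41 and 3.28 on the heterozygous arrays, close to background and without overlap, with a difference of 0.42 (SE 0.18, limma unadjusted p = 0.057), while its other probe set gave -0.17 (SE 0.14). Adamts10, linked to fibrillin microfibrils, measured 7.15, 6.96 and 7.17 on the null arrays against 6.88, 6.77 and 6.87 on the heterozygous arrays. Here too the groups did not overlap, and the difference was 0.25 (SE 0.11, limma unadjusted p = 0.052). On its other probe set, 1441309_at, the groups overlapped and the difference was 0.033 (SE 0.16). For Adamts16 the probe sets disagreed: the brighter one differed by 0.059 (SE 0.43), and 1441841_at by -0.36 (SE 0.12), without overlap and at an unadjusted p of 0.024. Adamts6 differed by 0.19 (SE 0.18), and Adamts18 and Adamts19 were under background.

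The TIMPs had differences from -0.32 to 0.32, and none passed the test. Timp1 (1460227_at), an inhibitor induced in inflamed and healing tissue, measured 9.88, 8.99 and 8.76 on the null arrays against 9.26, 8.82 and 9.09 on the heterozygous arrays, with null replicate 1 above the rest. Its difference was 0.15 (SE 0.30), and -0.18 without null replicate 1. Timp2 (1433662_s_at), which also takes part in the activation of the Mmp2 precursor by Mmp14, measured 11.76, 10.78 and 11.18 on the null arrays against 10.72, 10.93 and 11.54 on the heterozygous arrays, a difference of 0.17 (SE 0.31, 95% interval -0.57 to 0.92). Timp3 (1449335_at), the inhibitor that binds to matrix and blocks aggrecanases, measured 8.88, 9.52 and 9.95 on the null arrays against 9.08, 9.15 and 9.16 on the heterozygous arrays. The heterozygous arrays lay within a narrow range, with null replicate 1 below it and the other null arrays above it. The difference was 0.32 (SE 0.26, 95% interval -0.30 to 0.95), or 0.61 without null replicate 1 and 0.073 without null replicate 3. The other Timp3 probe sets, all above background, disagreed in direction, at 0.26 (SE 0.17), 0.0024 (SE 0.25) and -0.23 (SE 0.48). Timp4 (1423405_at), the inhibitor of heart, muscle and fat, measured 4.94, 6.69 and 7.48 on the null arrays against 6.26, 7.57 and 6.24 on the heterozygous arrays, a difference of -0.32 (SE 0.69), and its other probe set gave 0.24 (SE 0.39).

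Across arrays, 10 of the 37 genes had both of their highest values on null replicate 1 and heterozygous replicate 3, the arrays low in marrow genes, against 16.4% of all genes. They were Mmp3, Mmp11, Mmp14, Mmp16, Adamts4, Adamts7, Adamts9, Adamts12, Adamts16 and Timp2. Mmp3 was on average 1.45 higher on these arrays than on the other 4, Adamts4 1.22, Adamts12 1.11 and Mmp14 0.997. The opposite pattern, with both lowest values on these arrays, was shown by 5 of 37 genes, Mmp8, Mmp9, Adamts1, Adamts8 and Timp4, against 16.5% of all genes. The difference from the other 4 arrays was -4.67 for Mmp8, -1.41 for Timp4, -1.40 for Mmp9, -0.99 for Adamts1 and -0.94 for Adamts8. These are descriptions of 6 arrays, with no test. Each genotype held 1 of these arrays. Other markers moved with them in part: the mean of 7 skeletal muscle genes was lowest on these 2 arrays, at 13.14 and 13.40, against 13.75 to 13.93 on the rest. The mean of 7 fibroblast and tendon genes was highest on null replicate 3, at 8.998, followed by null replicate 1 at 8.98 and heterozygous replicate 3 at 8.85. It reached at most 8.67 on the other 3 arrays. The part of cell makeup in these values was not tested.

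**Figure D4:**
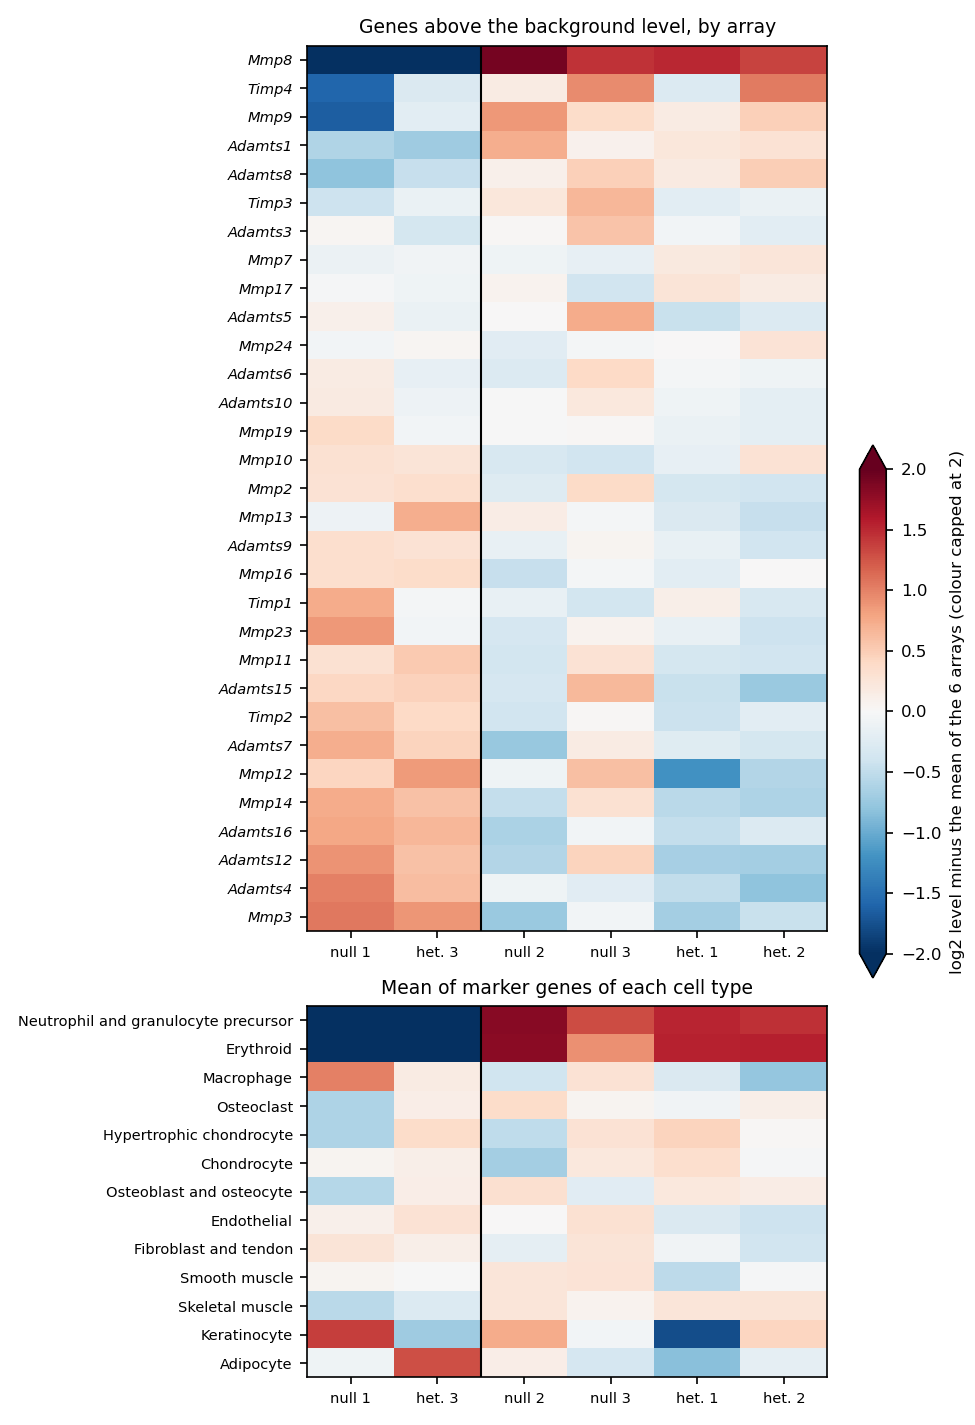
Log2 level minus the mean of the 6 arrays for the 31 genes above background (upper panel) and for the mean of the marker genes of 13 cell types (lower panel), with 1 column per array and colour capped at 2 log2 units. The 2 columns left of the line are null replicate 1 and heterozygous replicate 3, where Mmp8 and the neutrophil and erythroid means are lowest and Mmp3, Adamts4, Adamts12 and Mmp14 are highest.

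The genotypes were also compared without these 2 arrays, which leaves 2 null and 2 heterozygous arrays. Mmp12 then differed by 1.16 (SE 0.31), Adamts5 by 0.74 (SE 0.26), Timp3 by 0.62 (SE 0.18), Adamts4 by 0.49 (SE 0.16) and Mmp13 by 0.43 (SE 0.14). These and 2 genes with lower null values, Mmp7 (-0.34, SE 0.13) and Adamts19 (-0.43, SE 0.16), had an unadjusted p under 0.05, which makes 7 of 37 genes, where 9.52% of all genes did. Of these 7, Adamts19 was under background on all 6 arrays and Mmp7 on every null array. On the other probe set of Adamts4 the groups overlapped on these 4 arrays. None of the 37 genes passed limma's adjusted test (lowest adjusted p = 0.644). The groups did not overlap for 18 of 37 genes, where 43.2% of all genes did not. The difference was above 0 for 28 of 37 genes, where 46.9% of all genes had a difference above 0. The 28 include Mmp1a, Mmp20, Adamts18 and Adamts20, which were under background on all 6 arrays. The sign turned for Mmp9 (0.29), Timp1 (-0.17), Timp4 (0.17) and Mmp1a (0.011), which was under background. With all 6 arrays and a marrow score (neutrophil and erythroid genes averaged) as a covariate, Adamts3, Adamts4, Adamts5 and Mmp8 had an unadjusted p under 0.05, where 9.96% of all genes did. Adamts5 differed by 0.57 (SE 0.21), Adamts4 by 0.46 (SE 0.14) and Mmp8 by 0.36 (SE 0.12) in that fit, and none of the 37 passed the adjusted test (lowest adjusted p = 0.631). The marrow score was nearly the same on average in both genotypes, so the covariate changes the standard errors and could hardly move any difference. The part of marrow content in these differences was not tested.

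**Figure D5:**
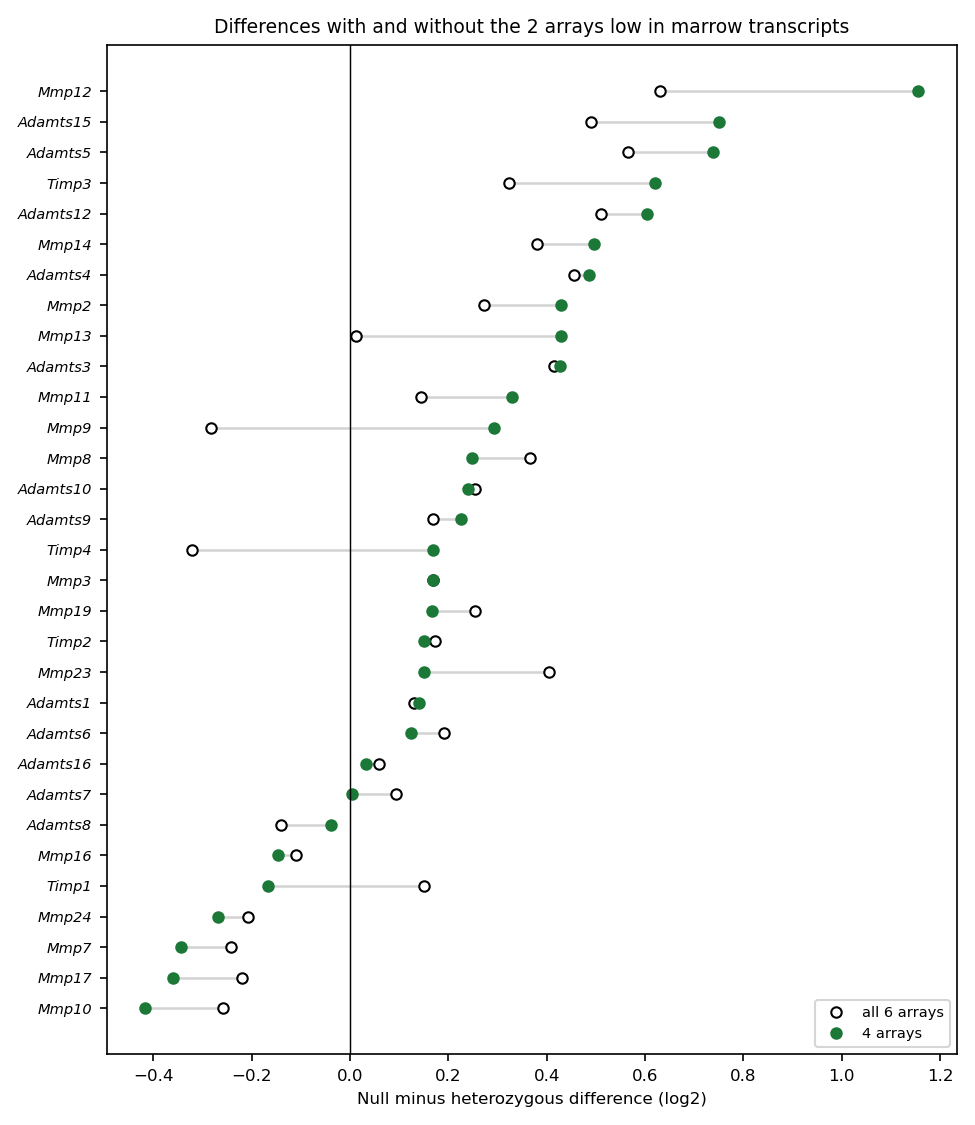
Null minus heterozygous difference on the log2 scale (horizontal axis) of the 31 genes above background, with all 6 arrays (open circles, n = 3 per group) and with the 4 arrays that remain without null replicate 1 and heterozygous replicate 3 (filled circles, n = 2 per group). Mmp13 moves from 0.012 to 0.43, Mmp12 from 0.63 to 1.16 and Mmp9 from -0.28 to 0.29, while Mmp3 stays at 0.17.

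Genes that act beside these proteases were taken from 6 lists, with 54 of 57 genes measured. None passed limma's adjusted test, 3 had an unadjusted p under 0.05 (4.49% of all genes did), all higher in null callus, and 44 of 54 differences were above 0 (49.7% of all genes), with a median of 0.20. The 3 were Cd44, Vcan and Plat. Cd44, the hyaluronan receptor that can hold Mmp9 at the cell surface, measured 10.07, 10.07 and 10.08 on the null arrays against 9.68, 9.39 and 9.57 on the heterozygous arrays (difference 0.53, SE 0.11, limma adjusted p = 0.999). Vcan, which encodes the proteoglycan versican cut by Adamts1, Adamts4 and Adamts5, measured 7.53, 7.17 and 7.48 on the null arrays against 6.69, 6.19 and 6.92 on the heterozygous arrays, without overlap (difference 0.79, SE 0.21, limma adjusted p = 0.999). Plat, the tissue plasminogen activator, differed by 0.62 (SE 0.25), with heterozygous replicate 3 inside the null range. All 9 listed ADAM genes had higher means in null callus, by 0.062 to 0.65. Adam8 of leukocytes and osteoclasts had the lowest unadjusted p among them (difference 0.65, SE 0.37). The membrane-anchored MMP inhibitor Reck differed by 0.37 (SE 0.18), the procollagen C-proteinase Bmp1 by 0.38 (SE 0.27), its relative Tll2, under background, by -0.12 (SE 0.12), and the ADAMTS-like genes Adamtsl3 and Adamtsl4 by 0.52 (SE 0.31) and 0.42 (SE 0.30). Among substrates, the cartilage collagen gene Col2a1 measured 8.16, 7.04 and 9.28 on the null arrays against 9.76, 8.92 and 9.13 on the heterozygous arrays, a difference of -1.11 (SE 0.55), and the lowest difference of all 54 genes was that of Col10a1, at -2.21. Col10a1 measured 3.11, 4.44 and 7.71 on the null arrays against 7.79, 6.74 and 7.35 on the heterozygous arrays. The groups overlapped, and the 95% interval of the difference was -4.86 to 0.44. Null replicate 1 was under background, while null replicate 3 lay inside the heterozygous range. Col10a1 was chosen for mention after its values were seen.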

How the data were processed

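Per the labels' protocols, callus RNA was hybridised to an Affymetrix whole-genome mouse GeneChip. The deposited table gives 1 value per probe set and array, from 1.65 to 14.49, which the range shows to be on a log2 scale. The authors' software and how they removed background and normalised: not given in the sources used here. Array medians were 4.55 to 4.59, and a change common to all genes cannot be seen after such scaling. The number of arrays limits the precision. Of 45101 probe sets, 64 controls were left out. Symbols came from the platform annotation, where 34945 probe sets have 1 symbol, 932 several and 9160 none; all 37 genes matched RefSeq by gene identifier with 0 symbols changed. Every probe set was fitted with limma 3.58.1 in R 4.3.3 (lmFit, eBayes, two-sided, 4 residual and 2.50 prior degrees of freedom), with Benjamini-Hochberg adjustment over 45037 probe sets. An exact permutation test (two-sided) of 3 against 3 arrays cannot go below 0.1. The code was tested on simulated data. Of the 37 genes, 19 have several probe sets, which agree in direction for 10.

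Genes were named with the value of every array if they had an unadjusted p under 0.05, were among the 10 brightest or the 8 with the widest range, were a TIMP, or were Mmp2, Mmp9, Mmp13, Mmp14, Adamts4 or Adamts5; other genes are given by range. From each related list, 2 genes at most could be named, those of lowest unadjusted p. Adamts3, Adamts10 and Adamts16, and markers other than list means, were given values after these were seen. The members, the lists and the tests were chosen with earlier results of these data known. Other settings were quantile normalisation, median centring, weights per array, a robust prior with an intensity trend, a level filter, other probe set choices, 1 probe set per gene, a plain test with equal variances, leaving out arrays, and a marrow score (mean of the neutrophil and erythroid genes) as a covariate.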

Additional observations from a re-analysis of the deposited data

How the results depend on the processing

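In every setting 0 of the 37 genes passed the adjusted test. The count at an unadjusted p under 0.05, which was 1 as reported, was 2 with quantile normalisation, 8 with array weights, 3 with an intensity trend and robust prior, 0 with the mean of all probe sets of a gene, 7 without both arrays low in marrow genes, 4 when the marrow score was a covariate, and 0 to 6 when single arrays were left out. The share of all genes at that level was 4.49% as reported and, in the same order, 4.59%, 12.1%, 3.91%, 4.23%, 9.52%, 9.96% and 2.81% to 7.77%. The number of genes without overlap, 6 as reported, was 3 among the 25 genes above the median level (fewer genes tested), 2 with the mean of all probe sets, 18 without both low-marrow arrays (fewer arrays), and 7 to 15 when single arrays were left out, against 10.1% of all genes as reported and 10.2%, 9.84%, 43.2% and 15.9% to 27.0% in these settings. With the mean of all probe sets, 0 of the 2 genes without overlap were higher in null callus, where 4 of the 6 were as reported. The count of 1 in the plain test is Adamts10, not Adamts5. The median difference, 0.15 as reported, was 0.052 to 0.29 when single arrays were left out. Beyond the constructions named, the cause was not tested. The 16 genes named with all values gave 272 differences in other settings, of which 245 kept their sign and 27 reversed it, with 0 passing or losing the threshold. Outside single arrays, Mmp13 turned to -0.0054 with median centring, Mmp9 to 0.052, Timp1 to -0.17 and Timp4 to 0.38 with array weights, and Mmp9 to 0.29, Timp1 to -0.17 and Timp4 to 0.17 without both low-marrow arrays. When single arrays were left out, the differences ran from -0.20 to 0.47 for Adamts1, -0.25 to 0.50 for Adamts7, -0.21 to 0.38 for Mmp13, -0.31 to 0.65 for Mmp3, -1.25 to 1.86 for Mmp8, -0.78 to 0.47 for Mmp9, -0.18 to 0.38 for Timp1, -0.088 to 0.41 for Timp2 and -0.88 to 0.39 for Timp4. Adamts5, Adamts4, Adamts12, Mmp2, Mmp12, Mmp14 and Timp3 kept their sign in all these settings. No paired analysis was possible because the labels carry no replicate number or litter that would tie arrays of the groups together. Signals near background limit Adamts3, Mmp7 and Mmp19, where a small difference cannot be told from none.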
